A study of Homo sapiens with 9 samples.

Results

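Recipient MDA-MB-231 cells that had been given small extracellular vesicles (sEVs) from either source were compared with recipient cells that had been given none. All 9 libraries of the series entered the comparison, and they were chosen by treatment label alone: 6 vesicle libraries (3 Cont sEV and 3 TIS sEV) against 3 No sEV libraries. MDA-MB-231 is an established line of triple-negative, mesenchymal-like human breast cancer cells, and donors and recipients were the same wild-type line. For Cont sEV the donor cells had been treated with DMSO for 72 h. For TIS sEV (therapy-induced senescence) they had been treated with nocodazole, a microtubule poison, at 100 ng/ml for 72 h. In both cases the donors were then released for 72 h into medium depleted of exosomes, and sEVs were collected from that medium by differential centrifugation. Recipients of all 3 groups were kept for 72 h in medium with 5% exosome-depleted serum, and libraries were made from total RNA. How RNA was selected for the libraries is not stated. None of the 3 groups is named as recipients given vehicle or other particles. A difference with vesicles therefore cannot be told apart from one that any added preparation would give. Because vesicles came from the recipients' own line, RNA carried in by vesicles and RNA made by the recipient cells cannot be told apart.

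sEVs are membrane-bound particles that cells release, in part from multivesicular endosomes, and they carry proteins, lipids and RNA between cells. They can act from outside, by ligands on their surface that bind receptors, or after uptake by endocytosis. In breast cancer cells they have been studied as carriers of growth, inflammatory and interferon-inducing signals, and senescent cells are known for secreting many inflammatory factors alongside vesicles.

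Transcript levels were relative abundances in TPM, transcripts scaled to the same total in every library, which are corrected for transcript length and keep no record of read depth. Values above 0 were listed for 21292 to 21975 genes in a library, and 13879 genes reached 1 TPM in 3 libraries or more and were tested. Marker levels went with the labelled line in part. VIM was at 2206 to 2299 TPM and CD44 at 428 to 514 TPM, and 12 of 13 mesenchymal-like markers reached the filter. The luminal genes ESR1, PGR, CDH1 and FOXA1 stayed below 1 TPM in all 9 libraries, but 5 of 11 luminal and HER2 markers reached the filter. So did 2 of 8 immune, 2 of 6 endothelial and 3 of 8 fibroblast markers. Of the immune markers NKG7 was listed at 0 in every library, as was CLDN5 of the endothelial markers. CD68, a lysosomal protein gene on the immune list, was at 146 to 160.5 TPM in all groups. By differences between libraries TIS sEV 3 stood somewhat apart, with an SD of log2 differences from other libraries of 0.131 to 0.153 over 3386 well-expressed genes, against 0.0777 to 0.132 in pairs of the others. The labels do not state whether replicates were separate cultures, so p-values below measure the spread between these libraries only, which may be technical. In bulk RNA, fewer cells that express a gene and less RNA per cell cannot be told apart.

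The vesicle and No sEV libraries differed little. In limma's moderated test on log2(TPM + 1) with Benjamini-Hochberg adjustment, 0 of 13879 genes (0%) passed at 0.05, and the lowest adjusted p was 0.499. At an unadjusted p under 0.05 there were 799 genes, 592 higher with vesicles (4.27% of all tested) and 207 lower (1.49%), where 694 would be reached if no gene differed. A second description used no test. In 262 genes (1.89%) all 6 vesicle libraries lay above all 3 No sEV libraries, and in 87 genes (0.627%) all 6 lay below. These genes are called separated here, and their median absolute log2 difference was 0.14. If labels did not matter, 1 of the 84 ways to choose the No sEV libraries would separate a gene upwards, and 1 downwards. That is an average share of 0.0119 of genes in each direction. Separation of a gene is therefore a description and not evidence of a vesicle effect. Without TIS sEV 3 the number of separated genes was 527 instead of 349, with fewer libraries left to overlap, and 0 genes passed the adjusted threshold. Without Cont sEV 2, which had the lowest weight (0.734) when limma estimated library weights, 721 genes were separated and 1 passed, RPS26P19 (adjusted p = 0.000768). By these weights TIS sEV 3 did not stand apart (1.07), and TIS sEV 2 was at 0.764. In the plot of differences against mean level, well-expressed separated genes lie near zero and some of low level lie far from it, such as the pseudogene RPS26P19 (mean 1.93 TPM) with a log2 fold change of -2.20.

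**Figure D1:**
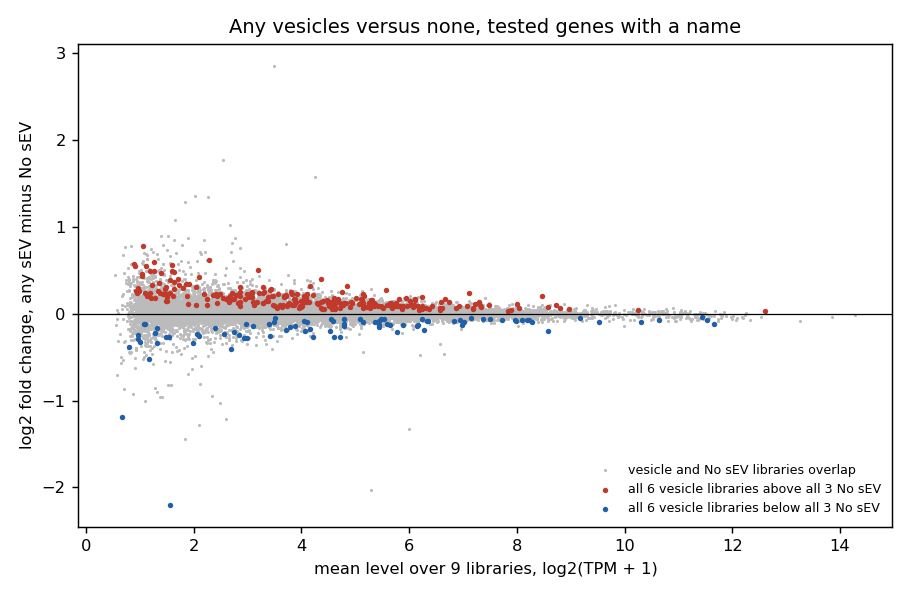
Each point is a tested gene with a name; the x axis is its mean level over 9 libraries as log2(TPM + 1) and the y axis its log2 fold change, vesicles minus No sEV. Red points (all 6 vesicle libraries higher) and blue points (all 6 lower) lie near zero at high levels and spread out at low ones, down to -2.20 for RPS26P19, and no gene passed the adjusted threshold.

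The size of what could have been missed was bounded by the 95% confidence intervals, taken gene by gene. On the log2(TPM + 1) scale the interval lay within 1.5-fold in either direction for 13113 genes (94.5%). For 9406 genes (67.8%) it lay within 1.2-fold. Because 1 was added to each TPM, these folds understate the change of low genes and do not bound their change in TPM. Among the 10483 genes whose mean reached 5 TPM, the median interval reached 0.114 to each side on the log2 scale. A point estimate past 1.5-fold on the same scale was found for 77 genes, of which 13 averaged 5 TPM or more.

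The direction of the whole comparison depended on the scale. On deposited TPM the median log2 fold change of all tested genes was 0.022, with 8872 genes (63.9%) positive and 5007 negative, and 75.1% of the separated genes were higher with vesicles. After median-of-ratios scaling the median was 0.0015 and separated genes divided into 162 higher and 162 lower (50% higher). Quantile scaling moved the median to -0.0009 and the division to 146 higher and 163 lower (47.2% higher). Of the 262 genes separated upwards on TPM, 144 stayed so after median-of-ratios scaling and 131 after quantile scaling, and of the 87 separated downwards 74 and 73 did. Unadjusted calls shifted likewise, from 592 higher and 207 lower to 373 and 410 with median-of-ratios scaling and to 350 and 380 with quantile scaling. The excess of higher over lower genes thus held on deposited TPM only among the 3 scales compared.

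Of the 3 interferon-response genes that were separated upwards and had a promoter in the table, IFIT3 and IFI44 carry a recognisable element in front of the gene, and these stretches are shown because interferon-stimulated genes are regulated through it. The interferon-stimulated response element was searched as GAAA, any 2 bases and GAAA again, on both strands of the 250 bases before each RefSeq gene start (GRCh38.p14). Each match below is printed on the plus strand with up to 20 bases on either side, and capitals mark the element, which reads here as its reverse complement. For IFIT3 the matches are at chr10:89327821-89327870 and chr10:89327855-89327904, starting 156 and 122 bases before the gene start, and for IFI44 the match is at chr1:78649751-78649788, starting 18 bases before it. These distances are from the RefSeq starts, which are not those of GENCODE 29 used for gene positions elsewhere; for IFIT3 the GENCODE start lies nearer, inside the second stretch printed.
IFIT3, first match: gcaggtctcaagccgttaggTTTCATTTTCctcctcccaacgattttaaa
IFIT3, second match: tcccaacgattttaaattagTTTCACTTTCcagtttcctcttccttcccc
IFI44: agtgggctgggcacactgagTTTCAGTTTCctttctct
The element was present in 1061 of all 35116 promoters (3.02%) and in 17 of the 27 tested interferon-response genes with a promoter in the table. Those 17 include IFI27 and IFITM3, which had negative log2 fold changes, as well as ISG15 and IFIT1, which had positive ones. A match is a description of the sequence and not a measured binding site.

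IFIT3 encodes an interferon-induced tetratricopeptide protein that acts with IFIT1 and IFIT2 against foreign RNA (GRCh38 chromosome 10, 89327894 to 89340971, plus strand). It was at 86.9, 91.3 and 88.4 TPM in No sEV, at 100.7, 96.9 and 96.3 TPM in Cont sEV, and at 95.7, 101 and 96.6 TPM in TIS sEV. Every vesicle library was above every No sEV library, and both sources gave the same mean within 1 TPM. The log2 fold change was 0.14 (SE 0.03, 95% interval 0.071 to 0.20), with an adjusted p of 0.717 in limma. OASL, an interferon-induced relative of the oligoadenylate synthetases, was at 29.4, 26.8 and 29.1 TPM without vesicles. With Cont sEV it was at 32.0, 32.2 and 32.9 TPM and with TIS sEV at 33.2, 31.4 and 32.7 TPM. Its groups did not overlap either (log2 fold change 0.18, adjusted p = 0.71 in limma). IFI44, a cytoplasmic interferon-induced protein, was at 63.6, 65.1 and 59.97 TPM, then 70.9, 70.1 and 65.9 TPM with Cont sEV and 70.2, 75.7 and 72.6 TPM with TIS sEV. The gap between its groups was narrow, and they overlapped after median-of-ratios scaling.

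The other genes of the interferon response lay on both sides of zero. Of 38 listed genes 35 were tested, 27 with a positive (77.1%, against 63.9% of all tested genes) and 8 with a negative log2 fold change; 0 passed the adjusted threshold. In all, 4 were separated upwards (OASL, IFIT3, IFI44 and RIGI, a cytoplasmic RNA sensor) and 1 downwards (IFITM3, a membrane protein that restricts virus entry). These shares, 11.4% and 2.86%, compare with 1.89% and 0.627% of all tested genes. The median log2 fold change was 0.036 against 0.022 over all genes, and it was 0.0053 for Cont sEV and 0.057 for TIS sEV. Median-of-ratios scaling gave 0.018 with 3 genes separated upwards and 1 downwards, and quantile scaling gave 0.0020 with 4 and 0. Genes that are commonly used as interferon read-outs lay on both sides: ISG15 had a log2 fold change of 0.054, IFIT1 0.047, MX1 -0.074 and IFI27 -0.14. IFITM3 was at 596.6, 586.5 and 589 TPM without vesicles and between 562 and 580 TPM in all 6 vesicle libraries.

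Outside the interferon list, TIPARP had the smallest unadjusted p of the genes that were higher with vesicles. It encodes an ADP-ribosyltransferase that is a target and repressor of the aryl hydrocarbon receptor (chromosome 3, 156673235 to 156706770). Levels were 62.9, 62.9 and 63.3 TPM in No sEV, 69.3, 68.9 and 68.5 TPM in Cont sEV, and 71.96, 71.3 and 71.5 TPM in TIS sEV. The 3 groups did not overlap and lay in that order. The pooled log2 fold change was 0.15 (SE 0.02, 95% interval 0.10 to 0.21), with an adjusted p of 0.499 in limma. DUSP10, a phosphatase that switches off the stress kinases p38 and JNK, was at 54.7 to 56.6 TPM without vesicles and at 58.9 to 64.0 TPM with them. FOSL1, an AP-1 transcription factor that is abundant in mesenchymal breast cancer cells, was at 395, 404 and 411 TPM without vesicles. Cont sEV libraries were at 426, 414 and 429.8 TPM and TIS sEV libraries at 453, 436 and 437 TPM. FOSL1 had a log2 fold change of 0.10, and its groups overlapped after quantile scaling.

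The other genes named as separated upwards had varied roles. ADD3, an adducin that links spectrin to actin under the membrane, was at 15.7, 14.5 and 17.4 TPM without vesicles. It was at 22.2, 24.99 and 20.2 TPM with Cont sEV and at 20.8, 20.9 and 18.9 TPM with TIS sEV. The difference, 0.40 on the log2 scale (95% interval 0.24 to 0.57), was among the widest of the named genes, and the adjusted p in limma was 0.522. SERPINB2, the plasminogen activator inhibitor PAI-2, was at 88.4 to 94.7 TPM in No sEV, 96.8 to 101.6 TPM in Cont sEV and 104.5 to 111.8 TPM in TIS sEV. GRB10, an adaptor that dampens insulin receptor signalling, had means of 59.7, 66.3 and 65.98 TPM in the same order. TRAF3IP1, a component of the ciliary transport complex, was a low gene at 5.46 to 6.88 TPM without vesicles and 7.80 to 10.7 TPM with them (log2 fold change 0.50). ZC4H2, a zinc finger protein gene, had means of 14.3, 18.1 and 18.1 TPM. All 12 genes named as separated upwards had a positive log2 fold change for each source taken alone, as the way they were chosen requires, and none passed the adjusted threshold for either.

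**Figure D2:**
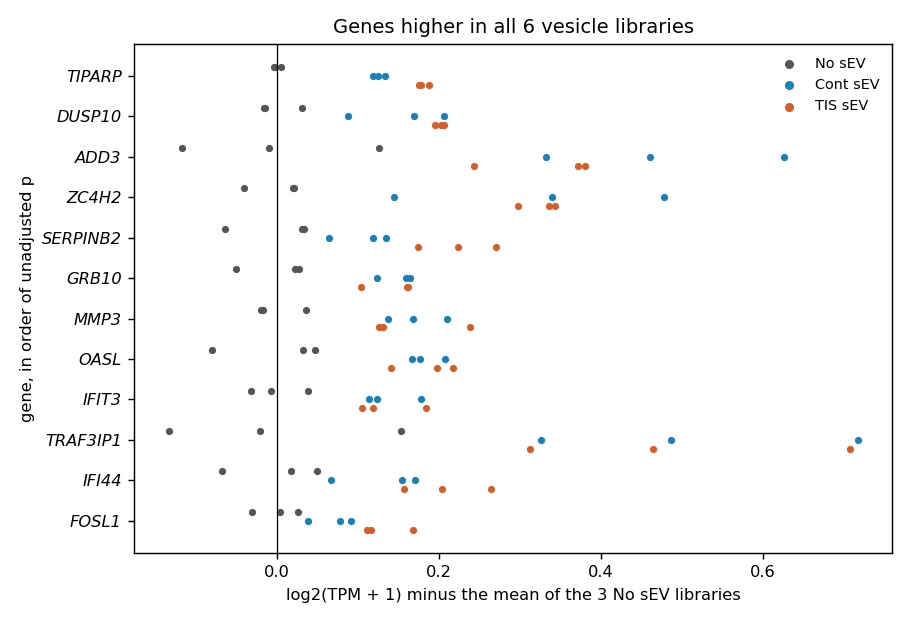
For 12 genes separated upwards, points give each library's log2(TPM + 1) minus the mean of the 3 No sEV libraries (x axis), by gene (y axis) and coloured by group. Blue Cont sEV and orange TIS sEV points lie right of every grey No sEV point, with gaps that are narrow for IFI44 and FOSL1.

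SERPINB2 also held a match to a loose AP-1 pattern (TGANTCA with any base at N, both strands). That pattern was found in 6.57% of all promoters, and the match here reads TGAATCA. It is shown because FOSL1, whose protein is part of AP-1, is on the same list; binding was not measured. The match is at chr18:63887583-63887629 on the plus strand, starting 102 bases before the RefSeq gene start, with the matching bases in capitals. By the GENCODE positions used for genes elsewhere, SERPINB2 runs from 63871692 to 63903890, so the match lies inside the gene. Whether the stretch acts as a promoter was not tested.
SERPINB2: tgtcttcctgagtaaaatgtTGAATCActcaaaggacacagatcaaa
None of the other 8 genes named as higher that had a promoter in the table held a match to this pattern in the 250 bases searched.

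Secreted factors associated with senescent cells leaned upwards in the vesicle libraries. Of 35 listed genes 31 were tested, and 27 (87.1%) had a positive log2 fold change, against 63.9% of all tested genes. At an unadjusted p under 0.05, 12 were higher and 0 lower, against 4.27% and 1.49% of all genes, and 0 passed the adjusted threshold. The median log2 fold change was 0.068, against 0.022 over all tested genes. Taken separately it was 0.036 for Cont sEV and 0.057 for TIS sEV, contrasts that share the No sEV libraries. After median-of-ratios and quantile scaling the median was 0.046 and 0.049. Among them 7 (22.6%) were separated upwards and 0 downwards, against 1.89% and 0.627% of all genes, and 3 remained separated upwards after median-of-ratios scaling and 6 after quantile scaling. The list was chosen with earlier results of these libraries known, so its direction is not independent evidence.

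The interleukins IL1A and IL1B, which start inflammatory signalling through the same receptor, were both separated upwards. IL1B was at 237.7, 244 and 251 TPM in No sEV, at 266, 253 and 258 TPM in Cont sEV, and at 273, 266 and 264 TPM in TIS sEV. The difference was 0.11 on the log2 scale (adjusted p = 0.722 in limma). IL1A was at 139 to 146 TPM without and 146 to 162 TPM with vesicles, so its groups nearly touched. VEGFA, the main growth factor for blood vessels, was at 312, 308 and 337 TPM in No sEV. Its level was 390.1, 349.8 and 363 TPM in Cont sEV and 349, 411 and 346 TPM in TIS sEV. With a log2 fold change of 0.20 and wide spread among vesicle libraries, it had an adjusted p of 0.722.

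Among proteases, MMP3 (stromelysin 1) was at 49.97, 51.9 and 49.9 TPM without vesicles, 56.96, 58.6 and 55.7 TPM with Cont sEV and 59.8, 55.3 and 55.5 TPM with TIS sEV. Both sources thus gave the same mean within 1 TPM (log2 fold change 0.17, 95% interval 0.09 to 0.25, adjusted p = 0.666 in limma). MMP1, the interstitial collagenase which was abundant in these cells, was at 6077 to 6127 TPM without and 6159 to 6323 TPM with vesicles, a log2 fold change of 0.032. The urokinase gene PLAU was at 222 to 224 TPM against 226 to 231 TPM. Its groups did not overlap, but the gap between them was about as wide as the spread within No sEV.

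Chemokines and colony-stimulating factors overlapped between the groups. CXCL1, a neutrophil attractant, was at 575 to 611 TPM without vesicles, 588 to 619.8 TPM with Cont sEV and 665 to 687 TPM with TIS sEV. The Cont sEV libraries overlapped with No sEV and the TIS sEV libraries lay above both (pooled log2 fold change 0.10). CXCL2 (0.13), CXCL3 (0.12) and CSF2 (0.072) had the same arrangement, with the TIS sEV libraries on top. CSF3 had the opposite one, at 109 to 115 TPM with Cont sEV and 95.1 to 104 TPM with TIS sEV, against 96.6 to 101 TPM in No sEV. IL6 and CXCL8, which are often used to define this secretory pattern, had log2 fold changes of 0.040 and 0.025, close to the median of all genes. CSF1 was lower, at -0.061.

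**Figure D3:**
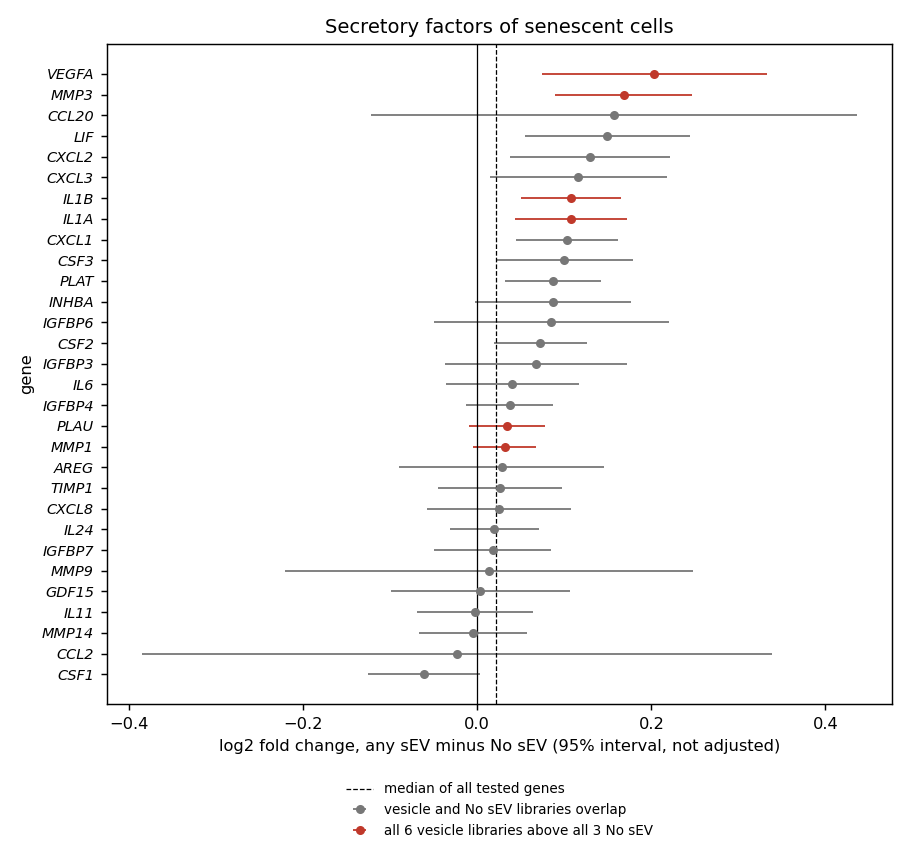
Points give the log2 fold change of vesicles minus No sEV (x axis) for 30 of the 31 tested secretory genes (y axis), with unadjusted 95% intervals; the dashed line is the median of all tested genes. The 6 red genes shown are separated upwards, and the intervals of VEGFA, MMP3, IL1B and IL1A lie right of zero while those of IL6 and CXCL8 cross it.

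Among genes lower with vesicles, KISS1 had the smallest unadjusted p of all 13879 genes, 7.04e-05. It encodes kisspeptin, the precursor of a peptide ligand known as a suppressor of metastasis (chromosome 1, 204190341 to 204196486, minus strand). Levels were 418, 413.5 and 411 TPM in No sEV, 345, 339 and 319 TPM in Cont sEV, and 390.3, 373.5 and 401.5 TPM in TIS sEV. The 3 groups did not overlap, and Cont sEV was lowest. The pooled log2 fold change was -0.20 (SE 0.03, 95% interval -0.27 to -0.13), with an adjusted p of 0.499 in limma. Its value was -0.31 for Cont sEV and -0.09 for TIS sEV, and the test of TIS sEV against Cont sEV gave 0.22 with an adjusted p of 0.0782, so a difference between the sources did not pass either.

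Several other lower genes were secreted factors or signalling regulators. SOCS2, a feedback inhibitor of growth hormone and cytokine receptors, was at 26.6, 26.1 and 26.2 TPM in No sEV, 22.8, 18.9 and 19.6 TPM in Cont sEV, and 23.9, 21.3 and 23.8 TPM in TIS sEV. The 3 No sEV values lay within 1 TPM of each other and above all 6 vesicle values (log2 fold change -0.27, 95% interval -0.41 to -0.13). ARTN, a neurotrophic ligand of the GDNF family, had means of 7.97 TPM without vesicles and 6.39 and 6.40 TPM with Cont sEV and TIS sEV. PTX3, a soluble pattern-recognition protein, was at 322 to 332 TPM against 290.9 to 304 TPM in Cont sEV and 303 to 316 TPM in TIS sEV. PTX3 thus went the other way from the secretory factors above, with a log2 fold change of -0.10 and an adjusted p of 0.722 in limma.

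The remaining genes named as separated downwards had varied roles. H2BC12, a histone H2B gene on chromosome 6 (27146418 to 27146798), was at 78.99, 84.9 and 85.6 TPM without vesicles. With Cont sEV it was at 70.6, 74.7 and 71.5 TPM and with TIS sEV at 74.6, 70.9 and 73.8 TPM. The sources gave nearly the same log2 fold change, -0.20 and -0.18. MT1X, a metallothionein that binds zinc and copper, was at 755, 763 and 777 TPM, against 710.3, 744.5 and 728 TPM in Cont sEV and 717, 695 and 691 TPM in TIS sEV. FAM76B, APPBP2, TMEM120A, the DNA-repair demethylase ALKBH3 and the proteasome chaperone PSMG3 had log2 fold changes of -0.27, -0.20, -0.27, -0.16 and -0.13. RPL13P5, a ribosomal protein pseudogene, had one of -0.41, but its reads may be divided with near-identical copies and its level is uncertain. All 12 genes named as separated downwards stayed so after both rescalings, whereas 11 of the 12 named upwards did after each one, without IFI44 in the first and FOSL1 in the second.

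**Figure D4:**
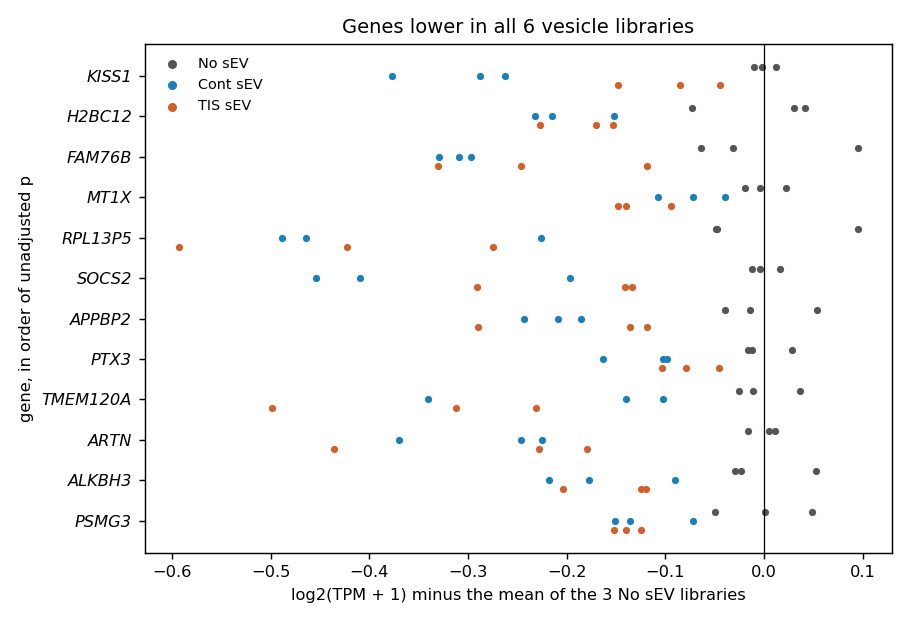
For 12 genes separated downwards, points give each library's log2(TPM + 1) minus the mean of the 3 No sEV libraries (x axis), by gene (y axis) and coloured by group. Vesicle points lie left of every grey No sEV point, and for KISS1 all Cont sEV points (blue) also lie below all TIS sEV points (orange).

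H2BC12 was the single lower gene, of 9 with a promoter in the table, with a match to any of 4 elements searched. It held the cAMP response element (TGACGTCA, both strands), which 1.65% of all promoters hold, at chr6:27146930-27146977 on the minus strand, starting 99 bases before the RefSeq gene start. The stretch is printed on the gene's strand with the element in capitals.
H2BC12: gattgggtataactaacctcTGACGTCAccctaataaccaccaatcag
The fourth element searched, the E-box CACGTG on both strands, is held by 6.34% of promoters and was found in none of the named genes with a promoter in the table, 9 of 12 higher and 9 of 12 lower.

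Ribosomal protein genes, whose products build the translation machinery, leaned downwards. All 78 cytosolic ribosomal protein genes were tested, and 60 had a negative log2 fold change, where 5007 of all 13879 genes did. None was higher and 17 were lower at an unadjusted p under 0.05, against 1.49% lower over all genes, and 0 passed the adjusted threshold. RPL12, RPL36, RPS20, RPS23 and RPS29 were separated downwards (6.41%, against 0.627%). The median log2 fold change was -0.033, with -0.027 for Cont sEV and -0.033 for TIS sEV, and it was -0.055 after median-of-ratios and -0.013 after quantile scaling. Quantile scaling left 2 genes separated downwards and 1 upwards. RPS29 was at 3444, 3587 and 3284 TPM in No sEV, 3262, 3234 and 2973 TPM in Cont sEV, and 3118, 3103 and 3253 TPM in TIS sEV. The gap between its groups, from 3262 to 3284 TPM, was small beside the spread within them.

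Of 28 replication-dependent histone genes 14 were tested, 11 of them with a negative log2 fold change and a median of -0.048, which was -0.10 without Cont sEV 1 and -0.093 without No sEV 2. H2BC12 was separated downwards (7.14%, against 0.627% of all genes). H3C2, a low gene at 0.622 to 2.45 TPM, was separated upwards (7.14%, against 1.89%). The labels do not say how RNA was selected for the libraries, which leaves the levels of these histone genes uncertain. Among 5 tested metallothionein-list genes 4 were negative, with a median of -0.076, and MT1X was the separated one (20%, against 0.627%). Over all tested genes 5007 of 13879 were negative. In lists this short 1 gene makes up the whole separated share. MT2A, the most abundant metallothionein, overlapped at 4660 to 5049 TPM without and 4444 to 4960 TPM with vesicles.

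The listed small noncoding RNAs, which are known cargo of vesicles, spread widely between libraries. Of 13 listed, 5 were tested, and all 5 had a negative log2 fold change, with a median of -0.46. The median was -0.16 without No sEV 1 and -0.63 without No sEV 2. RN7SK, a nuclear RNA that restrains transcription elongation, was at 134, 103.5 and 127 TPM in No sEV, 95.1, 112 and 68.2 TPM in Cont sEV, and 96.7, 84.1 and 76.2 TPM in TIS sEV. Cont sEV 2 overlapped with the No sEV libraries (log2 fold change -0.46, adjusted p = 0.776 in limma). A further entry of the same RNA family, 7SK, had one of 2.85 (adjusted p = 0.836 in limma), and reads may be divided between such copies. RNU6-33P and RN7SL273P, copies of other small RNAs, were also positive, at 1.77 and 0.69. Further small RNA entries, RN7SL3 and RNVU1-31, were negative, at -0.62 and -0.92. RN7SL1, the RNA of the signal recognition particle, was at 174 TPM in No sEV 1 and at 65.6 to 129 TPM in the other 8 libraries. Without No sEV 1 its log2 fold change went from -0.35 to 0.013. RMRP was listed at 0 in Cont sEV 2 and TIS sEV 3 and at 41.0 to 63.1 TPM elsewhere. All 3 vault RNAs of the VTRNA1 group and RNY4 were listed at 0 in every library. The labels do not say how RNA was selected for the libraries, so levels of these short and mostly non-polyadenylated RNAs are uncertain.

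Genes of the machinery that makes and takes up vesicles had small differences with narrow intervals. Of 25 genes for tetraspanins and vesicle release 24 were tested; log2 fold changes ran from -0.064 to 0.069, and 0 had an unadjusted p under 0.05. The tetraspanins CD9, CD63 and CD81, which are used to identify sEVs, had log2 fold changes of -0.045 (95% interval -0.12 to 0.028), -0.015 (-0.069 to 0.039) and -0.037 (-0.13 to 0.053). CD63 was at 629.9 to 631.7 TPM without vesicles and 606 to 641 TPM with them. STAM, which sorts cargo into endosomes, was the 1 separated gene (4.17%, against 0.627% of all genes separated downwards). It was at 44.1 to 46.4 TPM against 41.1 to 44.04 TPM, and it was not separated after either rescaling. Of 27 genes for endocytosis and uptake 21 were positive (77.8%, against 63.9% of all tested genes). Their median was 0.030, near that of all genes, and none was separated. RAB5A, which governs early endosomes, had the smallest p in that list, at 93.7 to 96.7 TPM without vesicles, 95.4 to 103 TPM with Cont sEV and 101.9 to 110.5 TPM with TIS sEV (log2 fold change 0.11, adjusted p = 0.776 in limma). The lysosome list had a median of 0.0054, and none of its 22 tested genes had an unadjusted p under 0.05. Median-of-ratios and quantile scaling turned the lysosome median to -0.017 and -0.0069 and that of vesicle release from 0.0023 to -0.020 and -0.0054.

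The antioxidant and TGF-beta programmes had a few separated members each. Among 24 tested NRF2 and antioxidant genes 3 were separated upwards (12.5%, against 1.89% of all genes): NQO1, a quinone reductase, HMOX1, heme oxygenase 1, and TXNRD1, thioredoxin reductase 1. NQO1 was at 115.9, 117 and 112 TPM without vesicles, 124, 118.9 and 119 TPM with Cont sEV and 124, 125 and 126 TPM with TIS sEV, a log2 fold change of 0.093 (adjusted p = 0.722 in limma). The list's median was 0.024, and 1 gene stayed separated after median-of-ratios scaling. Of 23 TGF-beta target genes 3 (13%) were separated upwards, among them BHLHE40 and PMEPA1, with a median of 0.035, and 2 and 3 stayed so after the rescalings. Heat shock chaperones had a median of 0.026. HSPA1A, an inducible HSP70 gene, was at 120.2 to 136 TPM without and 136 to 150.0 TPM with vesicles, and its reads may be divided with the near-identical HSPA1B.

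Sterol synthesis divided among its members. Of 24 tested genes 1 was separated upwards, LSS (4.17%, against 1.89% of all genes), and 3 downwards, IDI1, FDFT1 and MSMO1 (12.5%, against 0.627%). FDFT1, which commits intermediates to sterols, was at 183 to 185 TPM without vesicles and 171 to 179.9 TPM with them (log2 fold change -0.056). LSS, which closes the sterol rings further along the pathway, was at 50.6 to 50.7 TPM against 52.3 to 56.1 TPM. The median of 0.0094 turned to -0.013 and -0.0057 under median-of-ratios and quantile scaling, and to -0.016, -0.0020 and -0.0017 without No sEV 2, TIS sEV 1 or TIS sEV 3.

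The cell-cycle lists had 0 separated genes in either direction on TPM; median-of-ratios scaling gave 3 G1/S genes separated downwards and quantile scaling 2. The median was -0.010 over 40 G1/S and replication genes and 0.0020 over 35 G2/M and mitosis genes. For the G1/S genes the median was -0.053 with Cont sEV and 0.035 with TIS sEV, and both contrasts use the same No sEV libraries. The 25 YAP/TAZ targets had a median of -0.0021, and the 23 tested p53 targets one of 0.049. Of the p53 targets 1 was separated upwards, TP53INP1 (4.35%, against 1.89% of all genes), and it was not separated after either rescaling.

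**Figure D5:**
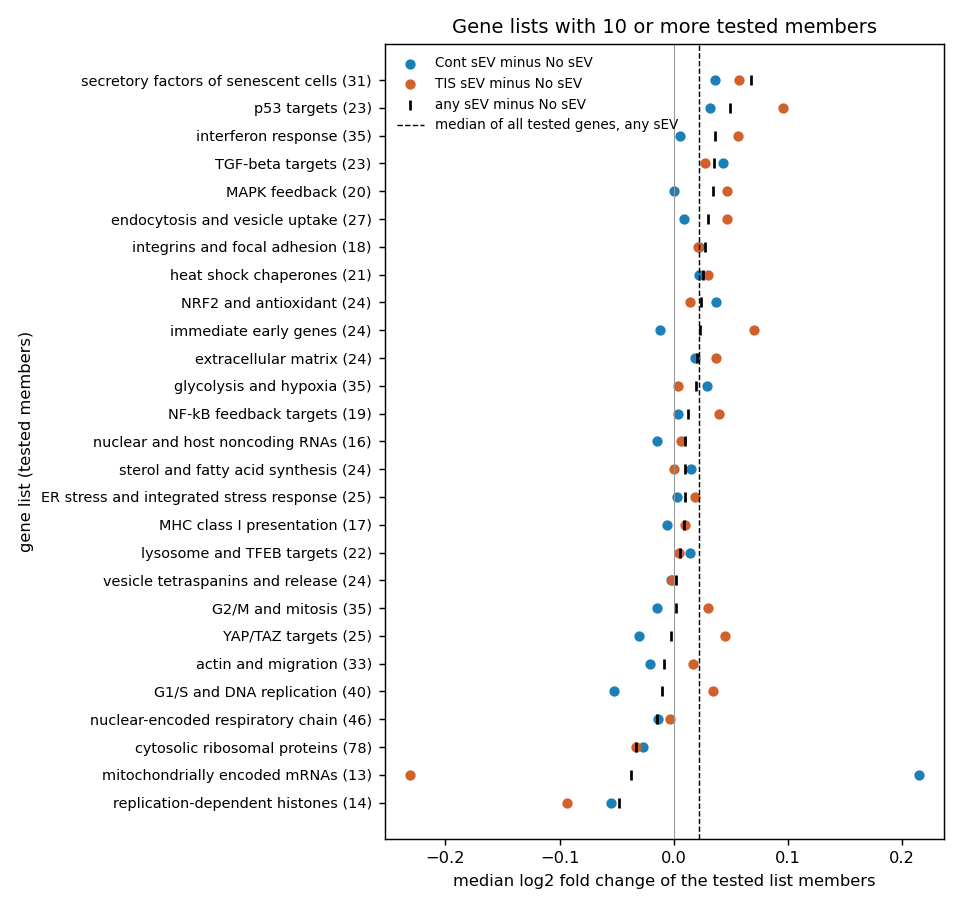
For each list with 10 or more tested genes (y axis, number tested in brackets), the black bar is the median log2 fold change of any sEV minus No sEV, and the blue and orange points are the medians for Cont sEV and TIS sEV (x axis). Secretory factors have the highest pooled median, 0.068, and the mitochondrially encoded mRNAs show the sources on opposite sides, 0.21 and -0.23, around a pooled median of -0.037.

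For some genes the pooled value lay between sources that differed from each other. CST1, a secreted inhibitor of cysteine proteases, had a pooled log2 fold change of -0.14 with an unadjusted p of 0.000169 (adjusted p = 0.51 in limma), and the sources lay on opposite sides of No sEV. No sEV libraries were at 1098, 1037 and 1096 TPM, Cont sEV at 1140, 1136 and 1161 TPM, and TIS sEV at 838, 805 and 841 TPM. The Cont sEV libraries lay above and the TIS sEV libraries below all No sEV libraries. PRSS2, a trypsinogen, had the same arrangement, with means of 61.8 ± 1.63, 75.2 ± 0.672 and 51.4 ± 1.46 TPM (SD, n = 3 each), and a pooled log2 fold change of 0.0086 whose sign turned under both rescalings (-0.013 and -0.010). NDRG1, a stress-responsive gene, had means of 278, 338 and 263 TPM, and the tissue factor gene F3 302, 296 and 348 TPM in the same order.

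The mitochondrially encoded mRNAs, which code for respiratory chain subunits, made up 2.04%, 2.21% and 2.41% of TPM in No sEV, 2.14%, 2.84% and 2.65% in Cont sEV, and 1.69%, 2.07% and 1.83% in TIS sEV, where all 3 libraries lay below all Cont sEV libraries. The vesicle mean was 2.20 ± 0.453% (SD, n = 6) and the No sEV mean 2.22 ± 0.186% (SD, n = 3). The difference of -0.019 percentage points had a two-sided exact permutation p of 0.94 over 84 assignments, where 0.0119 is the smallest p possible. The reference genes ACTB and GAPDH had pooled log2 fold changes of -0.030 and 0.034, inside intervals that include 0.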

How the data were processed

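RNA-seq of 9 libraries was analysed from 1 table of gene-level TPM that the authors deposited, with 60719 Ensembl genes. The submitters' processing notes name Salmon 1.4.0, Trim Galore 0.6.6, FastQC 0.11.9 and, among the authors' tools, DESeq2 1.28.0, with build GRCh38.p13. Which annotation release was used is not stated there. Since TPM does not record depth, the depth of each library is unknown and counts were not modelled. All columns were mapped to samples by their labels.

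Symbols were matched by Ensembl ID for 60419 genes (99.51%); coordinates are those of GENCODE 29 on GRCh38 and promoters those of RefSeq on GRCh38.p14. Values were taken as log2(TPM + 1), which understates the change of low genes. Genes reaching 1 TPM in 3 or more libraries were fitted with limma 3.58.1 in R 4.3.3 (3 group means, variance trend, two-sided), and the mean of Cont sEV and TIS sEV was set against No sEV, with Benjamini-Hochberg adjustment at 0.05 and 95% intervals that are not adjusted. Figures were drawn with matplotlib 3.10.9, and the fit was tested on simulated data. In 5 draws, 200 of 13879 genes were changed in both vesicle groups. The adjusted threshold recovered 41.2%, 74.3% and 95.5% of log2 changes of 0.25, 0.5 and 1, and 3.97% of calls were false. Smaller changes were not simulated.

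The comparison, the 30 gene lists and 5 marker lists were chosen with earlier results of these data known. Named genes were up to 12 per direction with a mean of at least 5 TPM whose 6 vesicle libraries all lay above or below the 3 No sEV libraries, by smallest unadjusted p; up to 3 members per list; and a fixed set (ACTB, GAPDH, CD9, CD63, CD81, CST1, PRSS2, NDRG1 and F3). Other list members were named after their values were seen. Some genes that entered the tests and list counts are not reported here. Alternatives were pseudocounts of 0.1 and 5, other filters, quantile and median-of-ratios scaling, omission of mitochondrial genes, the replicate number as a block, 2 groups, a constant prior variance, library weights, testing against a 1.2-fold minimum, and omission of single libraries.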

Additional observations from a re-analysis of the deposited data

Results flagged for a closer look

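In 2 of 34 groups of 6 vesicle values examined, 1 library lay far from the other 5 by Dixon's test at its 95% critical value, which chance exceeds in about 5% of groups. DUSP10 was at 58.9 TPM in Cont sEV 2, the lowest of the 6 vesicle libraries, and PSMG3 was at 49.5 TPM in Cont sEV 1, the highest of the 6.

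In limma's moderated test of TIS sEV against Cont sEV, with Benjamini-Hochberg adjustment over all genes, 13 of 13879 genes passed. Of these, 4 are in the fixed set of 9 genes examined here. That set was picked by hand and not drawn from all genes, so 4 of 9 is no estimate of a wider share. The log2 difference was -0.47 for CST1 (adjusted p = 0.000179), -0.54 for PRSS2 (adjusted p = 0.000179), -0.36 for NDRG1 (adjusted p = 0.0343) and 0.23 for F3 (adjusted p = 0.0252). In each of the 4, all 3 libraries of one source lay above all 3 of the other, so a pooled vesicle value stands for neither source.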

How the results depend on the processing

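The number of genes past the adjusted threshold stayed at 0 under both pseudocounts, a minimum of 5 TPM, both scalings, without mitochondrial genes, with 2 groups, a constant prior variance, library weights and a minimum fold of 1.2. It was 1 without a filter (an unnamed gene listed at 0 in all vesicle libraries, adjusted p = 0.00231 in limma) and 0 to 1 when single libraries were left out, the 1 being the pseudogene RPS26P19 without Cont sEV 2 (adjusted p = 0.000768). With the replicate number as a block it was 0, with 823 genes at an unadjusted p under 0.05 and a lowest adjusted p of 0.635. The numbers did not pair the libraries (r of same-numbered deviations -0.048 to 0.079). Separated genes numbered 349, 535 without a filter and 454 to 1070 when 1 library was left out. The number was 937, 863 and 1070 without No sEV 1, 2 or 3. It was 454, 721 and 513 without Cont sEV 1, 2 or 3, and 481, 484 and 527 without TIS sEV 1, 2 or 3. Fewer libraries leave fewer chances to overlap, but why the number depended on which library was left out was not tested. The difference in mitochondrial share ranged from -0.147 to 0.084 percentage points with 1 library left out, and was 0.0758 without No sEV 3 and 0.084, 0.0069 and 0.0546 without TIS sEV 1, 2 or 3. Over the 111 named genes and all alternatives, 2316 values kept direction and side of the threshold and 9 turned direction. PRSS2 was at -0.0133 and -0.0103 under median-of-ratios and quantile scaling and at -0.0034 to 0.030 with 1 library left out, and SNHG29 was at 0.0128 under quantile scaling. With 1 library left out RN7SL1 ranged from -0.63 to 0.0126, CD81 from -0.070 to 0.005, ACTB from -0.079 to 0.0054 and MT-ATP8 from -0.16 to 0.0189. The cause was not tested. List medians under the alternatives were added after seeing the data: with 1 library left out the median of the secretory list ran from 0.052 to 0.077, that of the interferon list from 0.027 to 0.039 and that of the ribosomal proteins from -0.044 to -0.019.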
